A study of Arabidopsis thaliana with 3 samples.

Results

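The classical reporter transcripts of plant defence PR1, PR2, PR5 and PDF1.2a were examined in sorted root endodermis of Arabidopsis thaliana. They are 4 of the 22746 plant probe sets on the array and were chosen by name, with earlier results of these data known: 266385_at for PR1 (AT2G14610), 251625_at for PR2 (AT3G57260), 259925_at for PR5 (AT1G75040) and 249052_at for PDF1.2a (AT5G44420). The platform annotation used here lists a gene for 1 of the 4, PDF1.2a, and the other 3 pairings were given with the choice of genes. The study has 1 group, wild-type Columbia seedlings aged 6 days, with 3 arrays labelled as biological replicates. Protoplasts were made from root tips about 1 cm long, cells with a green fluorescent protein were sorted, and the series text names the marker line E30 for mature endodermis. No untreated, infected or hormone-treated group and no other cell type was analysed here, so every level below is set against control probe sets and the rest of the same arrays. All 3 arrays came from sorted protoplasts. Whether making and sorting them changed any of the signals below, also those of hormone pathway genes, was not tested.

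Plants hold separate hormone branches for different attackers. Salicylate, sensed through NPR1 and its relatives, is known for defence against biotrophic pathogens, and PR1, PR2 and PR5 are the transcripts most often read as its output. Jasmonate, sensed by COI1 and the JAZ repressors, acts with ethylene on the defensin PDF1.2a in defence against necrotrophs, and through MYC2, MYC3 and MYC4 on a branch linked to wounding and herbivory. The 4 genes encode secreted proteins: a cysteine-rich protein of the CAP family (PR1), a beta-glucanase that cuts fungal wall glucan (PR2), a thaumatin-like protein (PR5) and a small antifungal defensin (PDF1.2a). They are best known from leaves.

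The arrays gave all 4 markers low signals. PR1 lay a little above the level of foreign control sequences, PDF1.2a lay far below it, and PR2 and PR5 were above it in some arrays and below it in others. That level, called the reference level here, was the 90th percentile of the 27 probe sets for Bacillus subtilis genes, which are foreign to the plant, and it was a signal of 14.2, 13.1 and 12.3 in replicates 1, 2 and 3. In limma's test against it, 1 of the 4 markers was called above (PR1) and 1 below (PDF1.2a), at an adjusted p under 0.05. Among all plant probe sets 69.1% were called above it and 11.1% below it, so a call above the level was the common outcome on these arrays. Most of the control probe sets lie below their own 90th percentile by construction. A call below the level therefore does not show that a transcript was lowered, only that its signal was in the range of most foreign sequences or under it. In RNA pooled from many sorted cells, few expressing cells and little RNA per cell cannot be told apart. The median over the 4 markers was 0.415 times the level, and that over all plant probe sets 4.30 times.

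**Figure D1:**
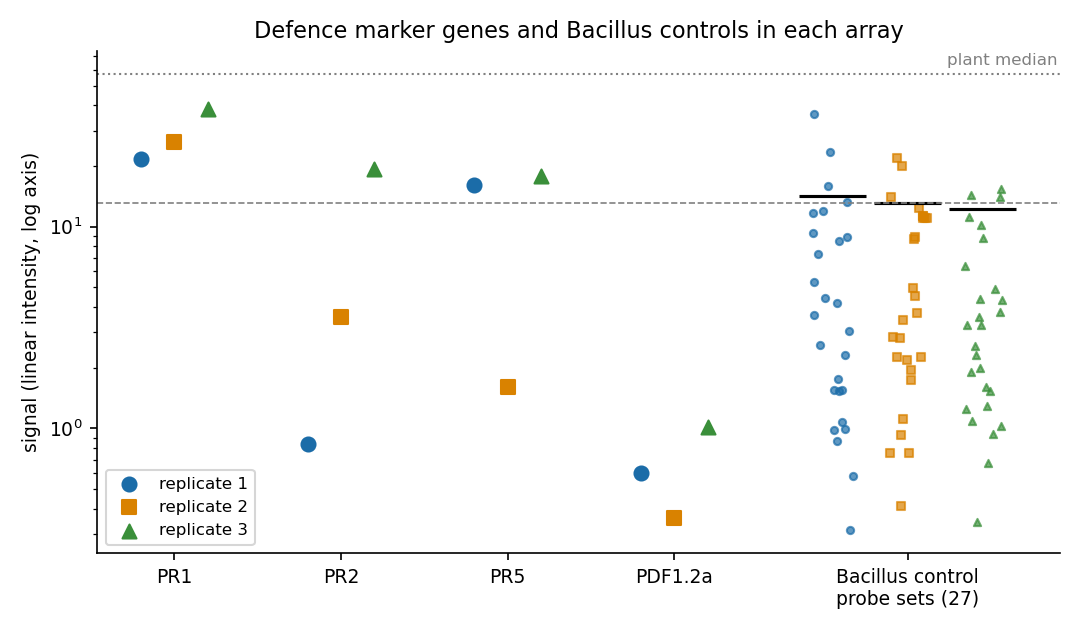
Signal (linear intensity, log axis) of PR1, PR2, PR5 and PDF1.2a and of the 27 Bacillus control probe sets in each array, with colours and symbols for the replicates. Black bars are the reference level of each array, the dashed line is its geometric mean and the dotted line is the geometric mean of the arrays' plant medians. PR1 lies above the bars in 3 of 3 arrays and PDF1.2a below them in 3 of 3.

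PR1, the most used salicylate marker, had signals of 21.8, 26.4 and 38.3 in replicates 1, 2 and 3, with a mean of 28.8 ± 8.52 (SD, n = 3). It exceeded the reference level in each array, by 1.53-fold, 2.02-fold and 3.11-fold, and was highest in replicate 3. The fitted log2 difference was 1.09 ± 0.28 (SE), or 2.13-fold (adjusted p = 0.0173 in limma's test, n = 3). In replicate 1 it was higher than 25 of the 27 Bacillus probe sets, and in replicates 2 and 3 than all 27. The call depended on the choice of level, and it was lost when replicate 2 or replicate 3 was left out. Without replicate 2 the difference was no smaller, at 1.13, but its SE was larger, at 0.41. The adjusted p was then 0.05001 in limma's test, just above the threshold. The difference was 0.81 without replicate 3 (adjusted p = 0.0690 in limma's test). With a higher level the difference shrank, to 0.68 at percentile 95 of the controls (adjusted p = 0.132) and 0.28 at the highest control of each array (adjusted p = 0.674 in limma's test). With a pseudocount of 16 it was 0.60 (adjusted p = 0.0176 in limma's test).

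PR1 was also dim among the plant's own transcripts. Its signal exceeded that of 28.5%, 33.5% and 37.4% of plant probe sets in replicates 1, 2 and 3. The plant medians were 55.1, 53.3 and 64.7 in these arrays, so PR1 was below the median in each of them. Probe sets differ in their response, so such a rank orders signals and not transcript amounts.

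PR2, the beta-glucanase, had signals of 0.835, 3.57 and 19.2 in replicates 1, 2 and 3. The highest array exceeded the lowest by 23.0-fold. In replicate 1 it exceeded 2 of the 27 Bacillus probe sets, in replicate 2 it exceeded 13, and in replicate 3 all 27. The mean of 7.88 with an SD of 9.93 (n = 3) describes no single array. The log2 difference from the reference level was -1.77 ± 0.91 (SE, adjusted p = 0.129 in limma's test, n = 3), so PR2 passed in neither direction. Without replicate 3 it was -2.98 (adjusted p = 0.0168 in limma's test), a call below the level.

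PR5, the thaumatin-like protein, was high in replicates 1 and 3 and low in replicate 2, with signals of 16.1, 1.61 and 17.9 in replicates 1, 2 and 3. Replicates 1 and 3 lay just over the reference level, by 1.13-fold and 1.46-fold, and replicate 2 was at 0.123 times that level. PR5 exceeded 25 of the 27 Bacillus probe sets in replicate 1, 5 in replicate 2 and 27 in replicate 3. Its log2 difference was -0.77 ± 0.76 (SE, adjusted p = 0.391 in limma's test, n = 3). Without replicate 2 its sign turned, to 0.36 (adjusted p = 0.380 in limma's test). The array in which PR5 was lowest was not the one in which PR2 was lowest, and both were highest in replicate 3.

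PDF1.2a, the jasmonate and ethylene reporter, had signals of 0.602, 0.358 and 1.02 in replicates 1, 2 and 3, with a mean of 0.659 ± 0.333 (SD, n = 3). Every array gave it a signal under the median of the Bacillus probe sets, which was 3.65, 3.73 and 3.24. It exceeded 2 of the 27 Bacillus probe sets in replicate 1, 0 in replicate 2 and 3 in replicate 3. The log2 difference from the reference level was -4.45 ± 0.36 (SE), a signal 21.9-fold below it (adjusted p = 0.000237 in limma's test, n = 3). With a pseudocount of 16, which compresses low signals, the difference was -0.81 (adjusted p = 0.00197 in limma's test). It stayed called below under each level tried, from -2.55 at the Bacillus median to -5.26 at the highest Bacillus probe set. Without 1 array it ran from -4.88 to -4.08, also called below in each case.

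PDF1.2a was among the dimmest plant probe sets. The share of plant probe sets with a lower signal was 0.629%, 0.163% and 1.75% in replicates 1, 2 and 3, that is 143, 37 and 399 of 22746. Being below the Bacillus median in all 3 arrays was shared by 846 plant probe sets (3.72%). A signal this low gives no measured amount of transcript, and it does not show that the transcript was absent.

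**Figure D2:**
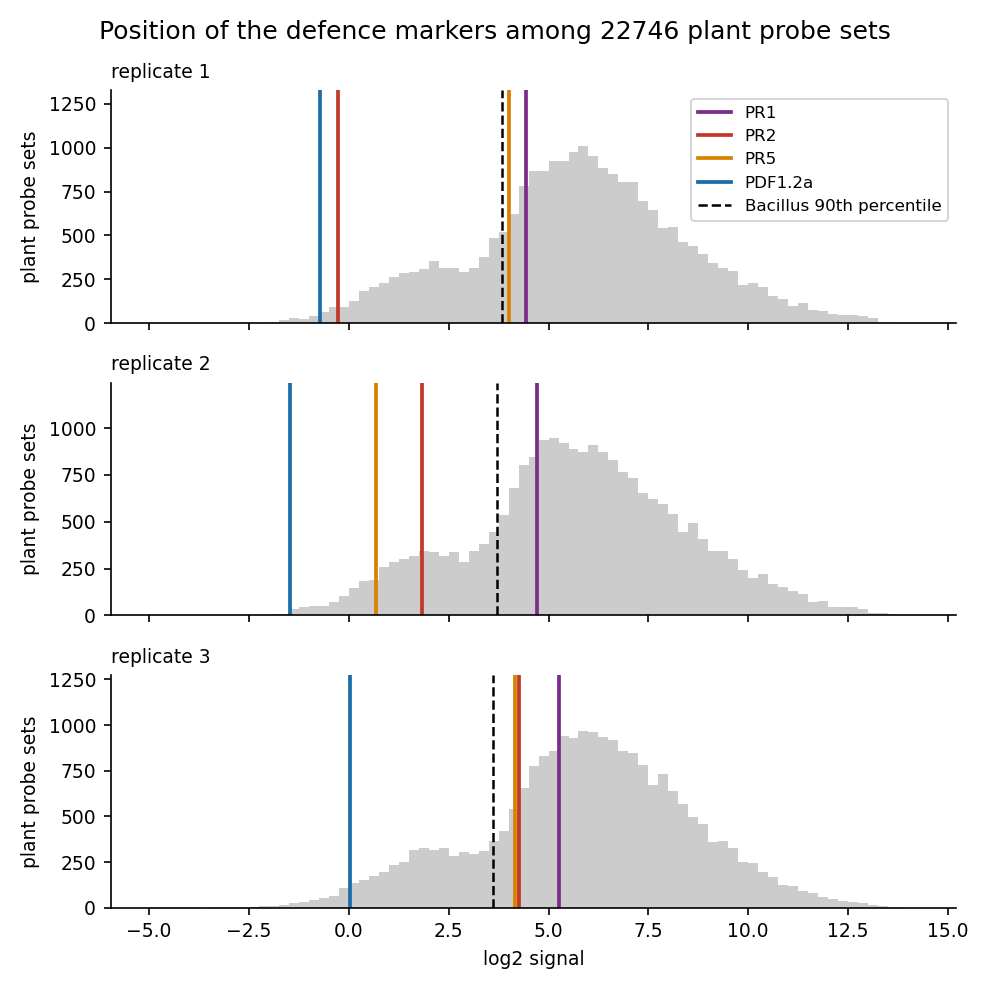
Histograms of log2 signal over the 22746 plant probe sets, a panel for each replicate, with coloured lines at PR1, PR2, PR5 and PDF1.2a and a dashed line at the reference level of the array. All 4 markers lie left of the main peak, PDF1.2a farthest left in each panel, while PR2 and PR5 move across the dashed line between panels.

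The spread between replicates separated the salicylate markers from each other. The SD of the log2 signal over the arrays was 0.41 for PR1, 2.26 for PR2 and 1.97 for PR5, and it was 0.75 for PDF1.2a. Spread depends on level on these arrays, so each marker was set beside the plant probe sets in the same decile of mean log2 signal. PR1, in decile 4 from below, had a larger SD than 47.8% of that decile, whose median was 0.43. PDF1.2a, in the lowest decile, exceeded 46.5% of it, around a median of 0.80. PR2, also in the lowest decile, exceeded 95.7% of it, and PR5, in decile 2, exceeded 91.9% of that decile, whose median SD was 1.14. PR1 and PDF1.2a thus varied about as much as probe sets of like level, and PR2 and PR5 more than most of them. The 27 Bacillus probe sets had SDs from 0.12 to 2.03, with a median of 0.74. PR1, PR5 and PDF1.2a lay within that range and PR2 above it.

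**Figure D3:**
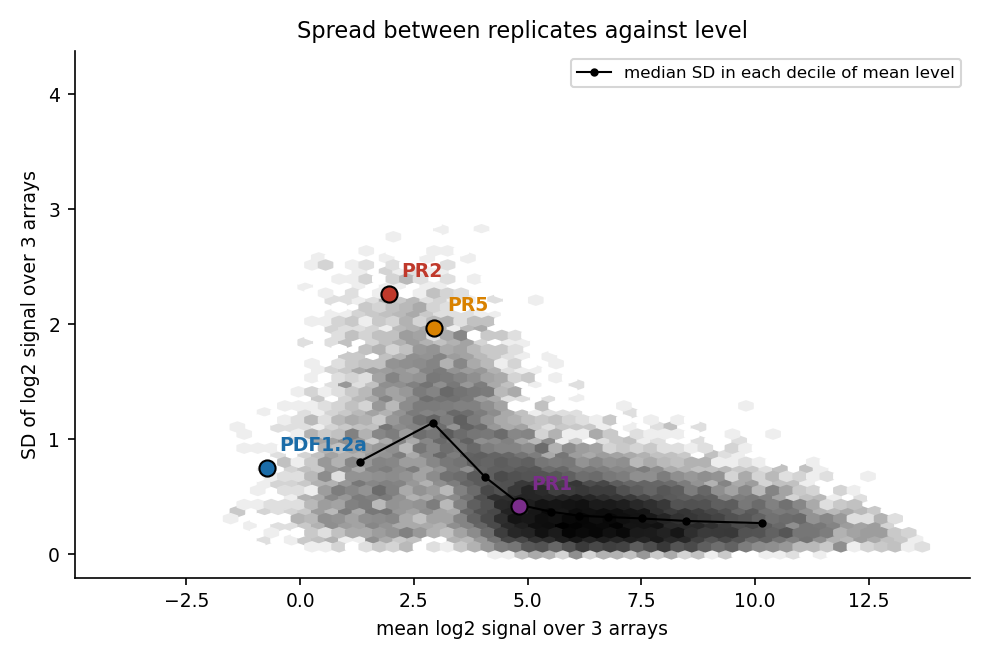
SD of the log2 signal over the 3 arrays against mean log2 signal, with plant probe sets as grey hexagons (darker for more probe sets), the median SD in each decile of mean level as a black line and the 4 markers as coloured points. PR2 (2.26) and PR5 (1.97) lie high above the line, and PR1 (0.41) and PDF1.2a (0.75) close to it.

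All 4 markers were highest in replicate 3, and replicate 3 was also the highest array for 48.5% of the plant probe sets in PR1's decile, for 37.5% in PR5's and for 34.1% in that of PR2 and PDF1.2a. After quantile normalization, which gives the arrays the same distribution, the SD was 0.30 for PR1, 2.17 for PR2, 1.92 for PR5 and 0.89 for PDF1.2a. The arrays carry no batch label, and the cause of the spread was not tested.

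The plant probe sets most like each marker over the 3 arrays were taken by the distance of their 3 log2 signals. AT5G44820 (249021_at) and AT3G42600 (252819_at) were nearest to PR1, both at a distance of 0.06. AT4G10510 (254976_at) was nearest to PR2, at 0.15, with signals of 0.804, 3.37 and 17.8, followed by AT4G11700 (254881_at) at 0.42. For PR5 they were 252399_at, which has no gene name here, at 0.21, and AT1G68600 (262232_at) at 0.27. AT2G02670 (267242_at) was nearest to PDF1.2a, at 0.16, with signals of 0.607, 0.360 and 0.913, and 267644_s_at, unnamed here, followed at 0.52. The likeness is of level and pattern over 3 arrays only.

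Relatives of the markers lie beside them in the genome. In the gene order of TAIR10.1, PR1 is next to PRB1, a basic PR1 homologue, PR2 is next to the glucanase gene BG1 with BG3 close by, PR5 is next to the thaumatin-like gene TLP-3, and PDF1.2a is next to the defensin gene PDF1.2c. None of these neighbours has a named probe set here, and they were not analysed. Whether transcripts of such relatives contributed to the signals of the markers was not tested.

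Other plant defensins reached very different signals on the same arrays, from PDF2.3 near the top of the range to PDF1.1 close to the bottom. Of 9 further defensin probe sets, 4 were called above the reference level (44.4%, against 69.1% of all plant probe sets), 1 below (11.1% in both) and 4 in neither direction, with a median of 1.17 times the level against 4.30 times for all plant probe sets. The 9 were picked by family name from the annotation after the data had been seen. PDF2.3 (listed as LCR68) had signals of 8848, 7053 and 7065 in replicates 1, 2 and 3, above 99.8% of plant probe sets on average and 578-fold over the reference level (log2 difference 9.17 ± 0.21 SE, adjusted p = 3.56e-05 in limma's test). PDF2.2 (listed as LCR69) followed with 2265, 1160 and 1289. PDF2.5 had a mean of 79.0 ± 17.7 (SD, n = 3) and PDF2.6 (listed as LCR72) of 25.2 ± 5.79, and PDF2.2, PDF2.5 and PDF2.6 were also called above. The call of PDF2.6 was lost without replicate 2 (adjusted p = 0.116 in limma's test) and without replicate 3 (0.108).

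The defensins of the PDF1 group were dim. PDF1.1 (262679_at, listed as LCR67) had signals of 3.19, 2.66 and 1.29 and, like PDF1.2a, was called below the reference level (log2 difference -2.57 ± 0.30 SE, adjusted p = 0.000892 in limma's test). PDF1.2b, the nearest to PDF1.2a by name among those with a named probe set, had signals of 34.3, 5.25 and 18.9. It was not called (log2 difference 0.19 ± 0.54 SE, adjusted p = 0.761 in limma's test), and sequences were not compared. Its probe set, 257365_x_at, carries the suffix that Affymetrix gives to probes that may bind several transcripts. PDF1.4 had 12.7, 13.7 and 20.9, close to the level in replicates 1 and 2 and 1.70-fold over it in replicate 3, and was not called. PDF2.4 (listed as LCR66) and PDF2.1 were not called either, and PDF2.1 had 40.1 in replicate 1, 4.71 in replicate 2 and 1.42 in replicate 3. Without replicate 1, PDF2.1 was called below (log2 difference -2.29, adjusted p = 0.0207 in limma's test).

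Members of the hormone pathways themselves could be followed for 10 of 83 listed loci, the others having no named probe set here. Of these 10, 7 were called above the reference level (against 69.1% of all plant probe sets), 1 below and 2 in neither direction, and their median was 2.69 times the level. These shares are close to the background. The 3 PDF1 defensins just described are among the 10.

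On the salicylate side, 2 loci were matched, and both were called above, as were 69.1% of all plant probe sets. GRX480, a glutaredoxin that binds TGA transcription factors and is induced by salicylate, had signals of 2703, 2694 and 2348 in replicates 1, 2 and 3, 196-fold over the reference level (log2 difference 7.61 ± 0.21 SE, adjusted p = 3.56e-05 in limma's test). Its SD over the arrays was 0.12 on the log2 scale. SAG101, a partner of EDS1 in immune signalling, had 33.0, 18.8 and 35.9, which is a log2 difference of 1.09 ± 0.28 (SE, adjusted p = 0.0171 in limma's test). SAG101 was not called without replicate 1 (adjusted p = 0.0723 in limma's test) or without replicate 3 (0.0762). GRX480 was bright, above 98.2% of plant probe sets on average, while PR1, PR2 and PR5 averaged 33.1%, 11.5% and 16.6%.

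On the jasmonate side, the matched synthesis and signalling genes were called above the level. OPCL1, an enzyme that activates jasmonate precursors for beta-oxidation, had signals of 1961, 1224 and 1849, 125-fold over the reference level. MYC3 and MYC4 are transcription factors that act with MYC2. MYC3 had 34.9, 69.0 and 108.9, 4.86-fold over it, and MYC4 had 33.5, 19.5 and 38.8, 2.23-fold over it. EIN3, the ethylene-pathway transcription factor, had 446, 603 and 736. THI2.1, a thionin gene induced by jasmonate in leaves, had 46.9, 49.5 and 33.7. The 3 signals of THI2.1 exceeded the highest Bacillus probe set of each array (36.2, 22.0 and 15.3). With that control as 1 level for all arrays, THI2.1 was called above (adjusted p = 0.0170 in limma's test). Taken per array, where every probe set had the same standard error of 0.58, it gave THI2.1 no call (adjusted p = 0.159 in limma's test). All 5 genes were called above the reference level (adjusted p from 3.61e-05 to 0.0153 in limma's test). With the PDF1 defensins, 8 jasmonate loci were matched. Of these 8, 5 were called above (62.5%, against 69.1% of all plant probe sets), 1 below and 2 in neither direction. MYC4 was not called without replicate 1 (adjusted p = 0.0655 in limma's test) or without replicate 3 (0.0673).

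A further 7 defence and jasmonate genes, also picked by name after the data had been seen, gave 2 calls above the level (28.6%, against 69.1% of all plant probe sets), 2 below (28.6%, against 11.1%) and 3 in neither direction. ORA47, an AP2/ERF factor induced early by jasmonate, had signals of 2487, 1983 and 1484 (147-fold, adjusted p = 3.56e-05 in limma's test). CHI, annotated as a putative chitinase, was called above with a mean of 30.5 ± 6.99 (SD, n = 3). JMT, which makes methyl jasmonate, had 1.69, 0.926 and 1.11 and was called below, as was the thionin gene THI2.2. CHI was not called without replicate 3 (adjusted p = 0.0532 in limma's test), nor THI2.2 without replicate 2 (0.167) or replicate 3 (0.0846). JRG21, a jasmonate-regulated gene, had 50.6, 11.0 and 48.8, ChiC, a chitinase, 36.6, 3.19 and 18.1, and PR-1-LIKE, a relative of PR1, 16.0, 3.95 and 22.8. These 3 were not called, and all were lowest in replicate 2, as PR5 and PDF1.2a were. Replicate 2 was the lowest array for 35.0% to 42.9% of plant probe sets in deciles 1 to 4 of level. Without replicate 2, JRG21 was called above (log2 difference 1.91, adjusted p = 0.00415 in limma's test).

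**Figure D4:**
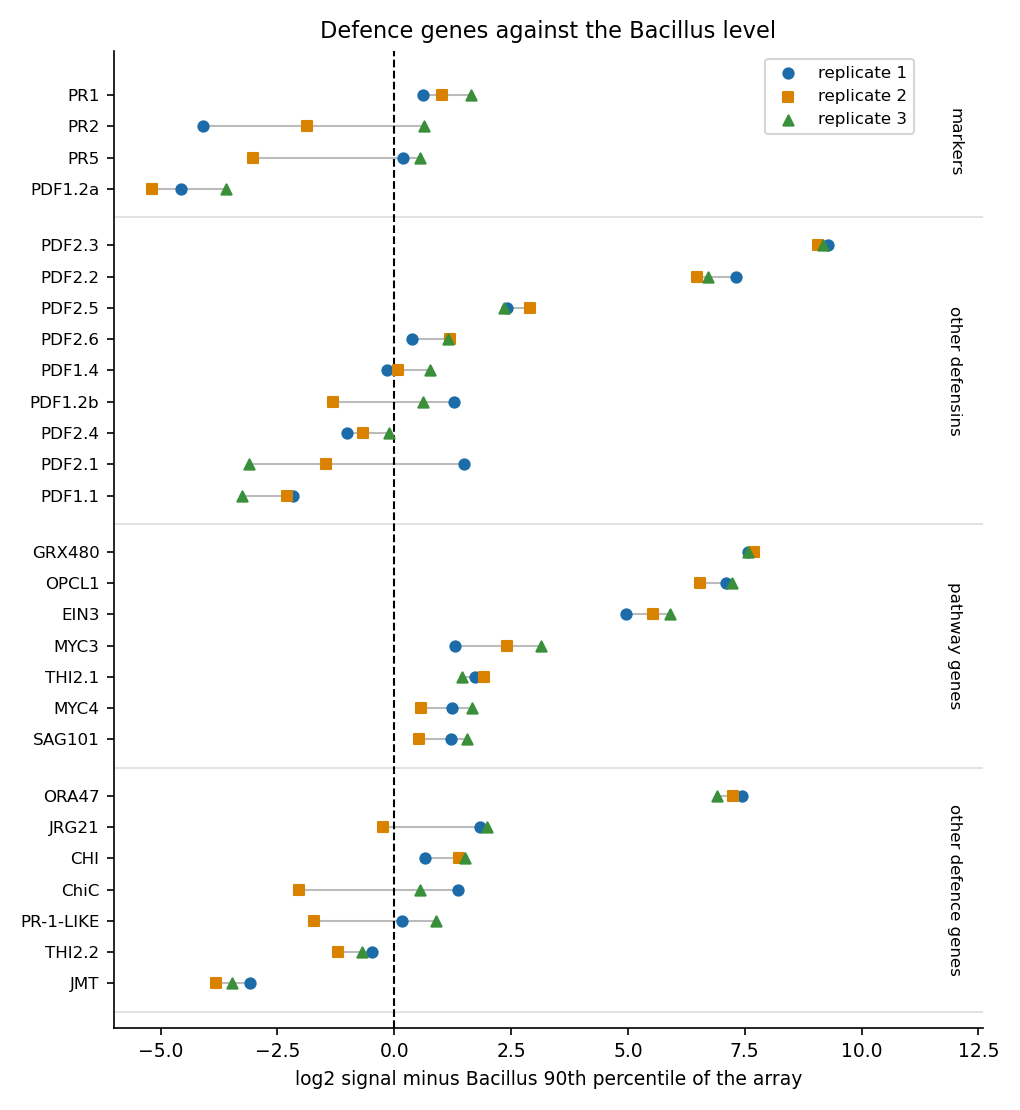
Log2 signal minus the reference level of the array for the 4 markers, 9 other defensins, 7 other pathway genes and 7 other defence genes, with a symbol for each replicate and a grey line over their range. PDF2.3, GRX480, ORA47, OPCL1 and PDF2.2 lie far to the right in all arrays. PDF1.2a, JMT and PDF1.1 lie left of 0 in all arrays, as do THI2.2 and PDF2.4, which are nearer to it.

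The label of the cells could be looked at through 4 of 29 listed cell type markers. Of these, 3 were called above the reference level, against 69.1% of all plant probe sets, so a call says little about the identity of the cells. Of the 15 endodermal ones, SGN3 (254506_at, listed as GSO1), the receptor kinase of Casparian strip integrity, had a mean of 4771 ± 1229 and BLJ (AT1G14580) of 104.4 ± 55.5 (SD, n = 3), both called above the reference level. CO2, a cortex marker, had 12.2, 28.7 and 10.6 and was not called. EXP7, a root hair marker, had 18.0, 71.5 and 192.0 and was called above (log2 difference 2.25 ± 0.71 SE, adjusted p = 0.0331 in limma's test). It was not called without replicate 2 (adjusted p = 0.0684 in limma's test) or without replicate 3 (0.109). EXP7 was lowest in replicate 1 and highest in replicate 3, as were PR1 and PR2, but also SGN3, BLJ, MYC3 and EIN3, and its part in the spread of PR1 and PR2 was not tested.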

How the data were processed

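RNA of sorted cells was measured on 3 Affymetrix arrays, after amplification in 2 cycles per the labels' protocols. The authors deposited linear signal intensity values, 1 column per array, made with MAS5 per the submitters' processing notes, with a version and scaling target not given in the sources used here. Detection calls were not used. The values were used as deposited, on the log2 scale and without a pseudocount. Depth has no counterpart on arrays; their number limits the precision. The labels do not say how seedlings were divided among replicates, so p-values measure the spread between these arrays. In limma the spread of each probe set is moderated by that of all of them. With percentile 75 of the controls or the highest control per array as level, all probe sets had the same standard error (0.54 and 0.58).

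For 22746 plant probe sets (22810 less 64 controls), log2 signal minus the array's 90th percentile of the 27 Bacillus probe sets was compared with 0 by limma 3.58.1 (R 4.3.3, intercept, eBayes, two-sided), with Benjamini-Hochberg adjustment over all of them and a threshold of 0.05. The code of the fit was run on simulated data with constant controls and the same spread for every probe set. That setting is simpler than these arrays, so the run does not measure how reliable the calls are here. The error of the percentile over its 27 probe sets does not enter the test. Percentiles and SDs are descriptions.

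Of 22810 probe sets, 13513 have 1 gene symbol in the platform annotation, 503 several, and 8794 are not listed there; names were updated through RefSeq (TAIR10.1). Named were the 4 markers, the 2 probe sets nearest to each, all matched members of lists of up to 7, and the 3 highest and 3 lowest of longer ones; the list of 9 defensins, added after the data were seen, is named whole. The markers and lists were chosen with earlier results of these data known. Alternatives were quantile normalization, a pseudocount of 16, other reference levels, filters on probe sets, an eBayes trend and leaving out each array.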

Additional observations from a re-analysis of the deposited data

How the results depend on the processing

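PDF1.2a kept its call below the level in every setting that tested it; the fit restricted to probe sets above the mean level holds only PR1 of the 4 markers. PR1 kept its direction in all settings and lost its call at percentile 95 of the controls (log2 difference 0.68) and at the highest control, taken per array or as 1 level for all arrays (0.28 in both). PR2 was called below at percentile 95 (-2.18) and at the highest control per array (-2.58), and PR5 at the highest control per array (-1.57, where limma gave every probe set 1 standard error of 0.58). With the highest control as 1 level for all arrays, neither was called (adjusted p = 0.05004 for PR2 and 0.126 for PR5 in limma's test). At percentile 50 of the controls, a level added after seeing the data, PR2 was at 0.13 and PR5 at 1.13, neither called. Without 1 array, PR1 ran from 0.81 to 1.33, PR2 from -2.98 to -0.61 and PR5 from -1.42 to 0.36. PR1 also lost its call without replicate 2 and without replicate 3, and PR2 was called below without replicate 3. A pseudocount of 16 compresses low signals by construction: the log2 difference was 0.60 for PR1, -0.37 for PR2, -0.13 for PR5 and -0.81 for PDF1.2a, and the SD over the arrays was 0.27 for PR1, 0.56 for PR2, 0.52 for PR5 and 0.029 for PDF1.2a. Without 1 array and with no pseudocount, the SD ran from 0.20 to 0.58 for PR1 and 1.48 to 3.20 for PR2. For PR5 it ran from 0.11 to 2.46 and for PDF1.2a from 0.53 to 1.06. The mean percentile over the arrays ran, without 1 array, from 31.0 to 35.5 for PR1, 5.45 to 16.7 for PR2, 13.2 to 23.0 for PR5 and 0.396 to 1.19 for PDF1.2a, and without replicate 3 those of PR2 and PDF1.2a were over 1.5 times lower.

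Of all plant probe sets, 2533 were called below the level in the main fit. This count was 4075 at the highest control per array, 3818 with it as 1 level and 656 at percentile 50. The pathway count above was 4 of 10 at the highest control per array, against 7 in the main fit. At that level 11654 of 22746 plant probe sets were called above, against 15715 in the main fit. The pathway count below was 0 in limma's test at percentile 50 of the controls (0 also at an unadjusted p under 0.05). PDF1.1 was at -0.67 there (adjusted p = 0.0893). MYC4, SAG101, CHI, PDF2.6 and, per array only, THI2.1 were not called at the highest control (adjusted p from 0.159 to 0.886 in limma's test). PDF2.4 and, per array only, PDF2.1 were called below. In the restricted fit the counts below are 0 by construction. The median SD was 0.80 and 1.14 in deciles 1 and 2 of level, where PR2, PR5 and PDF1.2a lie. No paired analysis was possible with only 1 group. The highest control is a single probe set, and the cause of these changes beyond the level itself was not tested.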
